A study of Sus scrofa with 2 samples.

Results

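This account compares invariant natural killer T (iNKT) thymocytes with gamma-delta-like thymocytes of the pig, and sorts the genes of each from those that both share. The donors were 2 mixed-breed pigs aged 22 weeks that had received no treatment, and their cells were pooled in each of 2 droplet libraries (10x Genomics 3′ chemistry, version 3.1). One library held total thymocytes and the other iNKT thymocytes, which had been positively selected with magnetic beads. Both were sorted for live cells. The labels give no gamma-delta population and no genotype beyond the mixed breed, and the pooled cells cannot be assigned to a pig.

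Both groups were selected on measured transcripts. A cell had to show 500 or more genes, and no more than 10% of its unique molecular identifiers (UMIs, counted transcripts) could come from 13 mitochondrial genes. It also had at most 1 UMI over the division genes TOP2A, UBE2C, PCLAF and TK1, and no UMI of the coreceptors CD4 and CD8B. In the iNKT library 10976 of 12097 barcodes met this. In the total library 275 of 9112 barcodes met it and also had at least 2 UMIs of SOX13 and RHEX together and at most 1 of PTCRA and DNTT. The 2 groups together held 11251 of 21209 barcodes. Another group from the total library served as conventional reference. It held 591 T cells with exactly 1 of CD4 and CD8B detected and no UMI of SOX13, RHEX or 7 genes of immature thymocytes.

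iNKT cells are T cells whose semi-invariant receptor recognises lipids presented by CD1d. They mature in the thymus under the transcription factor PLZF, encoded by ZBTB16, and acquire effector properties before they meet antigen. Gamma-delta T cells carry the other type of T cell receptor and branch off before the CD4 CD8 double-positive stage, with SOX13 among their early factors. Pigs have a large gamma-delta compartment, and in the mouse some gamma-delta cells also use PLZF.

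There was 1 library of each kind, so no difference below has a replicate check. All intervals are 95% and cover counting error only. Library, bead selection and cell kind cannot be told apart in any contrast of iNKT cells with the other groups. The median cell had 4171.5 UMIs and 1500 genes among iNKT cells, 4276 UMIs and 1684 genes among gamma-delta-like cells, and 2924 UMIs and 1195 genes in the reference. Of 41 barcodes found in both libraries, 37 belonged to iNKT cells, 1 to gamma-delta-like cells and 2 to the reference.

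The labels were checked first. Of 10976 iNKT cells, 6018 held a ZBTB16 UMI (54.8%, 53.9 to 55.8), as did 0 of 275 gamma-delta-like cells, which allows a share of up to 1.33%. It was also found in 2 of 591 reference cells. The summed level was 223.7 CPM (UMIs of the gene per 1000000 summed UMIs) in iNKT cells, with 0 UMIs in gamma-delta-like cells and 1.12 CPM in the reference, and iNKT cells were at least 90.9-fold above the gamma-delta-like cells, whose 0 was set at a floor of 3 counts over the group. TRBV25-1, named after the human variable segment of iNKT receptors, stood at 10.7 CPM in iNKT cells and had 0 UMIs in gamma-delta-like cells and 1 UMI in the reference.

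The gamma-delta-like cells could not be checked by their receptor. TRDC, the constant region of the delta chain, had 1 UMI in these cells and none in the others, and the gamma chain constant genes were not matched by symbol. BLK and ETV5, genes of the gamma-delta programme that did not choose the cells, were high in them. BLK, a SRC-family kinase that gamma-delta T cells use, stood at 673 CPM in gamma-delta-like cells, 22.3 CPM in iNKT cells and 33.0 CPM in the reference. ETV5, an ETS-family transcription factor, stood at 291 CPM, 1.63 CPM and 0 UMIs in the same order. A list of gamma-delta-associated genes had 13 members with at least 20 CPM in 1 of the 3 groups. In gamma-delta-like cells 11 of these were at least 2-fold above the reference, SOX13 and RHEX among them. ETV5, SYK and SOX5 are also among the 11, and they reached the minimum CPM only in gamma-delta-like cells. The other 2, CD2 and CD27, were at least 2-fold below it. The label therefore rests on genes such as BLK and ETV5 and not on receptor transcripts.

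The genes that chose the cells are described without a comparison. SOX13 and RHEX together had 2 to 38 UMIs per gamma-delta-like cell, with a median of 11. Both genes were detected in 203 of the 275 cells, SOX13 alone in 15 and RHEX alone in 57. Just inside the threshold were 26 cells with 2 UMIs, and 64 cells that met the other conditions had 1 UMI and lay just outside. SOX13 was detected in 7 iNKT cells. RHEX, a regulator of erythroid expansion, was detected in 1622 iNKT cells (14.8%, and 8.09% with each cell thinned to 2000 UMIs). In the 4008 total thymocytes past the same filters with CD4 or CD8B detected, RHEX was found in 1.97% at a median depth of 1664 UMIs.

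Markers of other thymocytes differed between the groups, and their part in the results was not tested. The 9 double-positive markers with a symbol summed to 3.92 CPM in iNKT cells, 150.1 CPM in gamma-delta-like cells and 9.52 CPM in the reference, which excluded 7 of them. ARPP21 made up 115 CPM of the gamma-delta-like sum. The 8 cytotoxic or NK markers summed to 62.0, 167 and 751 CPM in that order, with GNLY, the granule protein granulysin, at 0 UMIs in both iNKT and gamma-delta-like cells. The 4 regulatory T markers summed to 93.6, 415 and 243 CPM, of which IKZF2 gave 410.1 CPM in gamma-delta-like cells, while FOXP3 had 0 UMIs there. Markers of B and plasma cells summed to 145, 111 and 174 CPM.

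The direct comparison of iNKT with gamma-delta-like cells asked which transcripts set the groups apart. iNKT cells were higher in costimulatory receptors, receptors for interleukins 6 and 7, S100 proteins, ID2 and interferon-stimulated genes. Gamma-delta-like cells were higher in GATA3, ID3, E proteins, MYB, the kinases BLK and SYK, and the receptors IL9R and SLAMF7. A gene is called here when its CPM differed at least 2-fold with the interval on the same side of 1. Of 6148 genes with at least 20 CPM in 1 of the 3 groups, 489 (7.95%) were called higher and 733 (11.9%) lower in iNKT cells, so that 40.0% of calls were higher. The shares of 7.95% and 11.9% are the background for the counts of each list below. With TMM scaling (edgeR's trimmed mean of M values) 699 were higher and 502 lower, or 58.2% of calls, and the median log2 ratio of all genes moved from −0.21 to 0.09.

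The 12 genes with the highest ratios included ZBTB16, given above. TNFRSF4, the costimulatory receptor OX40, was detected in 90.7% of iNKT cells and 2.91% of gamma-delta-like cells, or 79.5% and 1.10% at equal depth. Its levels were 1284 and 9.84 CPM, a ratio of 130 (74.7 to 252), and the reference lay between them at 90.7 CPM. CD200, a surface ligand of an inhibitory receptor, had 3 UMIs in gamma-delta-like cells and 255 CPM in iNKT cells, a ratio of 104 (35.5 to 503). MCUB, a subunit of the mitochondrial calcium uniporter that lowers its activity, had 2 UMIs in gamma-delta-like cells and a ratio of 103 (28.6 to 854). HPGDS, the haematopoietic prostaglandin D synthase, had a ratio of 68.3 (23.3 to 331) on 3 UMIs. IL6ST, the shared receptor chain gp130, stood at 304 against 7.38 CPM, a ratio of 41.2 (21.7 to 90.2). TSPAN5, IFITM3, TNFRSF18, S100A11 and NDST3 also belonged to these 12 genes, as did FAM111A, at least 51.0-fold higher.

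The lowest ratios belonged to genes at low levels in iNKT cells. ELOVL3, an enzyme of fatty acid elongation, had 2 UMIs in iNKT cells and 275 in gamma-delta-like cells (226 CPM), a ratio of 0.000175 (2.1e-05 to 0.000637). LPL, lipoprotein lipase, had 3 UMIs in iNKT cells and 120 CPM in gamma-delta-like cells, a ratio of 0.000493 (0.000101 to 0.00147). SLAMF7, a receptor of the SLAM family, stood at 0.591 against 201 CPM, 340-fold lower in iNKT cells (232 to 515), and was detected in 54.5% of gamma-delta-like cells and 0.228% of iNKT cells. IL9R, the interleukin 9 receptor, was 203-fold lower (133 to 323) and ETV5 178-fold lower. RAB27B, SLC45A3, PALM2-AKAP2, RGS18, LPAR3, CLIC4 and NEDD4L complete these 12 genes. Among genes without a symbol, ENSSSCG00000031085 stood at 357 CPM in gamma-delta-like cells on 435 UMIs, with 5 UMIs in iNKT cells and 0 in the reference. ENSSSCG00000034914 had 560, 12 and 1 UMIs in that order.

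To separate shared genes from those of each lineage, both groups were set against the reference. The 2 contrasts share these 591 cells, so a gene low by chance in the reference is high in both, and nothing is read from their overlap. Over the reference, iNKT cells had 341 genes higher (5.55%) and 459 lower (7.47%), and gamma-delta-like cells had 463 higher (7.53%) and 384 lower (6.25%). With TMM scaling the iNKT contrast turned to 509 higher and 296 lower, and the gamma-delta contrast to 405 and 428. Genes higher in both groups are called shared, and there were 67 of them (1.09%), RHEX among them by the choice of cells. Genes higher in iNKT cells than in both other groups, and not called higher in gamma-delta-like cells than in the reference, form the iNKT side with 225 genes (3.66%). The mirror rule gave a gamma-delta side of 319 genes (5.19%), SOX13 and ARPP21 among them by the choice of cells. In 86 genes (1.4%) both groups were lower than the reference, CD4 and CD8B among them by the choice of cells. A further 176 genes (2.86%) were lower in iNKT cells than in both other groups, and 158 (2.57%) were lower in gamma-delta-like cells than in both.

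**Figure D1:**
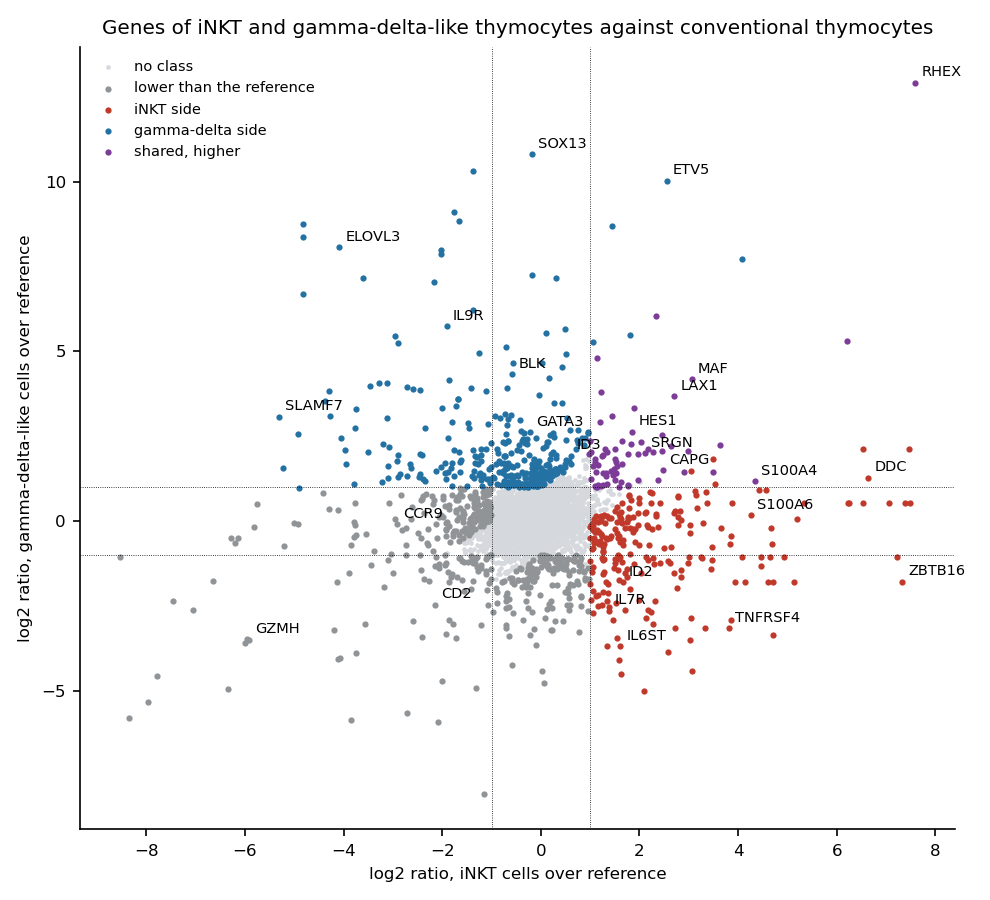
Each point is 1 of the 6148 measured genes other than CD4 and CD8B, with its log2 ratio of iNKT cells to the reference on the x axis and of gamma-delta-like cells to the reference on the y axis, 0.5 being added to each summed count; dotted lines mark 2-fold. ZBTB16, TNFRSF4 and IL7R lie at the lower right, ETV5, ELOVL3 and BLK at the top, and the 67 shared genes such as MAF and SRGN at the upper right. SOX13 and RHEX chose the cells.

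The shared genes comprised 52 with no call between iNKT and gamma-delta-like cells, 5 higher in iNKT cells and 10 higher in gamma-delta-like cells. MAF, a transcription factor of innate-like and interleukin 17 producing T cells, led the 12 shared genes with the highest smaller ratio to the reference. It stood at 35.0 CPM in iNKT cells, 75.5 CPM in gamma-delta-like cells and 3.92 CPM in the reference, ratios of 8.94 (4.33 to 22.3) and 19.3 (8.98 to 49.2). It was detected in 12.5%, 23.3% and 0.846% of cells. LAX1, an adaptor that dampens antigen receptor signalling, stood at 96.9, 192 and 14.6 CPM. ETV6, an ETS-family repressor, was nearly level in both groups at 29.3 and 30.3 CPM against 5.04 CPM in the reference.

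Of 12 measured cytotoxic genes, 2 were shared above the reference, SRGN and CST7, and 3 were lower than the reference in both groups. SRGN, the proteoglycan serglycin that packs cytotoxic granules, stood at 1285 CPM in iNKT cells, 1202 CPM in gamma-delta-like cells and 297 CPM in the reference. At equal depth it was found in 84.0% of iNKT cells, 78.4% of gamma-delta-like cells and 26.5% of reference cells. CST7, the granule protease inhibitor cystatin F, stood at 215, 182 and 44.2 CPM. RGS2, a regulator of G protein signalling, stood at 65.5, 79.6 and 15.7 CPM, and TGM2, transglutaminase 2, at 36.4, 27.1 and 5.60 CPM. The other genes named by the rule were ITIH5, ZNF462, C1orf21, DENND3 and PCBD1, of which ZNF462 was 13.1-fold lower in iNKT than in gamma-delta-like cells. ITIH5 had 0 UMIs in the reference, so that iNKT cells were at least 12.3-fold and gamma-delta-like cells at least 6.35-fold above it.

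Several shared genes belong to the fixed lists. HES1, a target of Notch signalling, stood at 143 CPM in iNKT cells, 246 CPM in gamma-delta-like cells and 39.2 CPM in the reference. CAPG, an actin-capping protein, stood at 809.7, 411 and 144 CPM, and NFATC1, a transcription factor of receptor signalling, at 35.7, 31.2 and 15.1 CPM. ANXA1, annexin A1, stood at 148, 35.3 and 12.9 CPM. S100A4, a calcium-binding protein of effector T cells, stood at 494, 55.0 and 24.1 CPM, but its 67 UMIs in gamma-delta-like cells came from 15 of the 275 cells, against 4790 of 10976 iNKT cells. Of 21 alternatives, 3 of them added after seeing the data, 18 kept the 2-fold threshold, allowed genes under 50 CPM and took gamma-delta-like cells from the total library. In each of these 18, 21 of the 67 genes were shared, among them MAF, LAX1, SRGN, CST7, CAPG, RGS2, TGM2 and ANXA1. HES1 was shared in 17, ITIH5 in 13 and NFATC1 in 12 of the 18, TMM scaling not among the 12. Of the 67 genes, 21 remained shared at 3-fold, 41 with a minimum of 50 CPM, and 55 with iNKT-library cells that met the gamma-delta rule in place of the gamma-delta-like cells. With all other total thymocytes as reference 36 of the 67 remained shared.

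**Figure D2:**
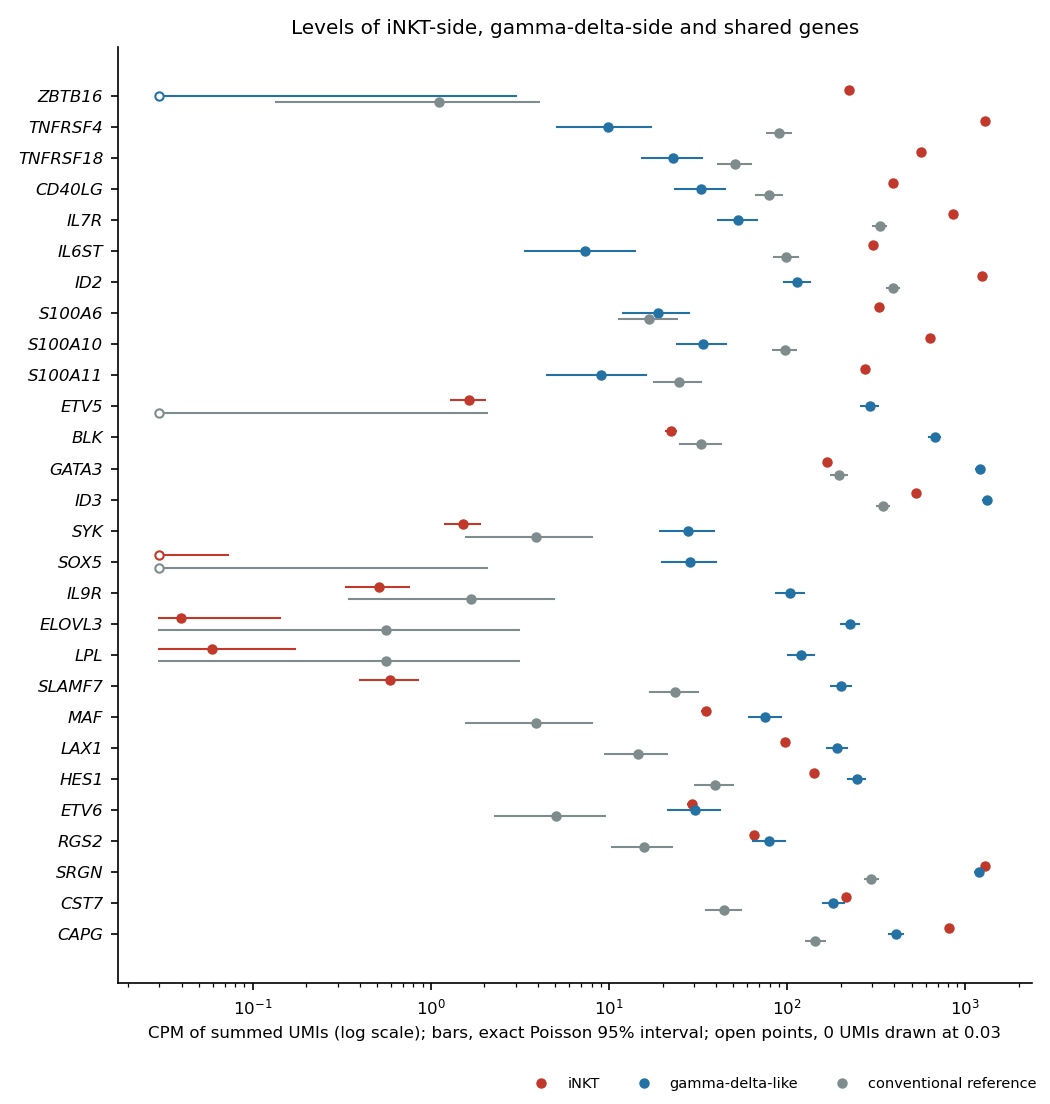
CPM of summed UMIs on a log axis for 28 genes in iNKT cells, gamma-delta-like cells and the conventional reference, with exact Poisson intervals; an open point is a group with 0 UMIs, drawn at 0.03. ZBTB16 to S100A11 lie highest in iNKT cells, ETV5 to SLAMF7 highest in gamma-delta-like cells, and for MAF to CAPG both groups lie above the reference.

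The iNKT side was led by ZBTB16, with a ratio to the reference of 200 (55.3 to 1649.8) on the reference's 2 UMIs. DDC, aromatic amino acid decarboxylase, stood at 83.6 CPM in iNKT cells and had 2 UMIs in gamma-delta-like cells and 1 UMI in the reference. CD9, a tetraspanin, stood at 109 CPM in iNKT cells, had 0 UMIs in gamma-delta-like cells and 3.92 CPM in the reference. FOSB, an immediate early transcription factor, stood at 77.3 CPM in iNKT cells, with 1 UMI in gamma-delta-like cells and 4 UMIs in the reference. GSPT2, a translation termination factor, stood at 330.4, 16.4 and 22.4 CPM. IL4, the type 2 cytokine, was detected in 1008 iNKT cells (9.18%) and had 0 UMIs in both other groups, where 0 of 275 gamma-delta-like cells allow a share of up to 1.33%.

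The gamma-delta side was led by ETV5, at least 173-fold above the reference, where it had 0 UMIs. SLC45A3, a solute carrier, had 156 UMIs in gamma-delta-like cells (128 CPM), 4 in iNKT cells and 0 in the reference. ALOX5AP, the protein that presents arachidonate to 5-lipoxygenase, stood at 161 CPM in gamma-delta-like cells, 6.56 CPM in iNKT cells and 6.16 CPM in the reference. TENT5A, a poly(A) polymerase, stood at 106, 2.82 and 3.92 CPM in that order. MAP3K8, a kinase of the NF-kB and MAPK pathways, stood at 64.8 CPM in gamma-delta-like cells, 1.5 CPM in iNKT cells and 1.12 CPM in the reference. SOX5, a relative of SOX13, was found in 30 of 275 gamma-delta-like cells and had 0 UMIs in both other groups. In each of the same 18 alternatives, 113 of the 225 iNKT-side genes and 90 of the 319 gamma-delta-side genes kept their class. At 3-fold 134 and 165 kept it, and with a minimum of 50 CPM 129 and 181. With the iNKT-library cells that met the gamma-delta rule in place of the gamma-delta-like cells, 2 and 0 kept it.

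Transcription factors divided between the groups. Of 24 measured factors of T lineages, 9 were higher in iNKT cells and 9 lower, and with TMM scaling 9 and 6, the median log2 ratio turning from −0.27 to 0.03. ZBTB7B, the factor of the CD4 lineage, stood at 57.2 CPM in iNKT cells and had 3 UMIs in gamma-delta-like cells, a ratio of 23.3 (7.95 to 113). KLF2, which controls egress from the thymus, stood at 597, 147 and 198 CPM in iNKT cells, gamma-delta-like cells and the reference. GATA3, a factor of early T cells and type 2 responses, stood at 169, 1211 and 196 CPM, 7.18-fold lower in iNKT cells (6.79 to 7.59). MYB, a factor of progenitors and early thymocytes, stood at 14.3, 288 and 52.6 CPM. TCF7, a factor of early and memory-like T cells, was 2.97-fold lower in iNKT than in gamma-delta-like cells, where its 567 CPM lay beside 573 CPM in the reference.

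E proteins and their ID inhibitors set the groups apart by member. ID2 stood at 1250.1 CPM in iNKT cells, 114 CPM in gamma-delta-like cells and 395 CPM in the reference, and was detected in 90.9%, 22.2% and 43.7% of cells. ID3 stood at 528, 1321 and 346 CPM, highest in gamma-delta-like cells and 2.50-fold lower in iNKT cells (2.38 to 2.63). The E proteins TCF12 and TCF3, which the inhibitors bind, were 5.33-fold and 3.08-fold lower in iNKT cells. All 4 measured members were thus called, 1 higher and 3 lower in iNKT cells.

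**Figure D3:**
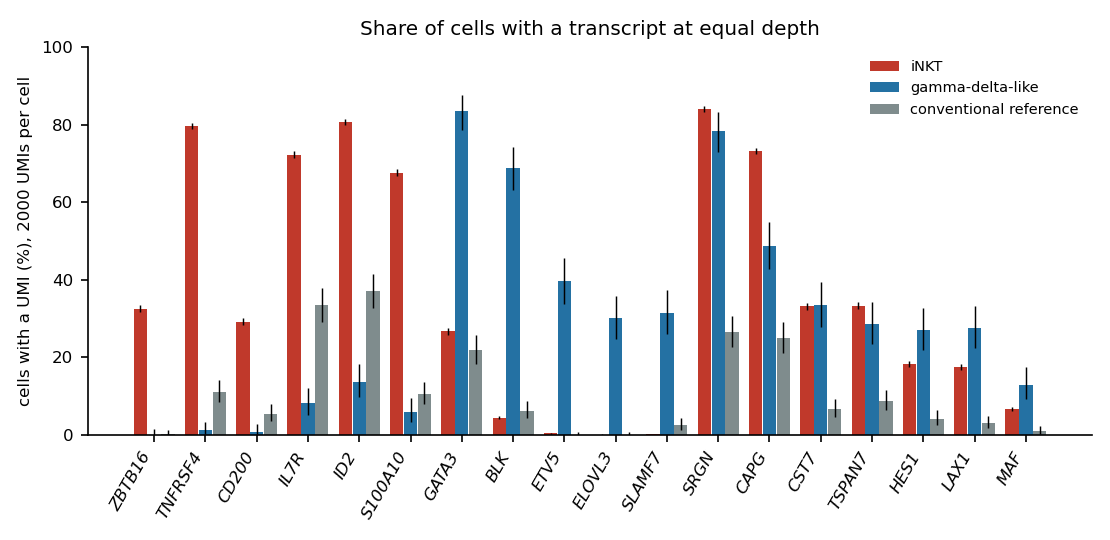
Bars give the share of cells with at least 1 UMI of each of 18 genes after every cell was thinned to 2000 UMIs, in iNKT cells, gamma-delta-like cells and the conventional reference, and lines give the Clopper-Pearson interval. TNFRSF4 was found in 79.5% of iNKT cells and 1.10% of gamma-delta-like cells, GATA3 in 26.6% and 83.5%, and SRGN in 84.0% and 78.4% of them.

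The list of innate-like T cell genes followed iNKT cells more than gamma-delta-like cells. Of 19 measured members, 11 were higher and 3 lower in iNKT than in gamma-delta-like cells, with a median log2 ratio of 1.59. Against the reference 10 were higher and 3 lower in iNKT cells, while 3 were higher and 8 lower in gamma-delta-like cells. The 3 that gamma-delta-like cells held above the reference were the shared genes MAF, ANXA1 and S100A4, and the iNKT side held ZBTB16, ID2, ANXA2, S100A6, S100A10 and S100A11. KLRK1, the activating receptor NKG2D, and SH2D1A, the SLAM adaptor SAP, were lower in iNKT than in gamma-delta-like cells, by 8.87-fold and 2.86-fold. KLRB1 and IL17A had 0 UMIs in all 3 groups, and IFNG had 1 UMI, in the reference. TBX21, the type 1 factor T-bet, had 26, 2 and 2 UMIs in iNKT cells, gamma-delta-like cells and the reference.

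The list of S100 proteins, annexins and galectins overlaps the innate-like list. Of 12 measured members, 6 were higher and 0 lower in iNKT cells, and 8 and 0 with TMM scaling. The 6 were ANXA1, ANXA2, S100A4, S100A6, S100A10 and S100A11. All of them are also members of the innate-like list, so the lists are not separate results. S100A10, the partner of annexin A2, stood at 634 CPM in iNKT cells, 33.6 CPM in gamma-delta-like cells and 97.4 CPM in the reference. S100A6 stood at 328, 18.9 and 16.8 CPM. S100A6 in gamma-delta-like cells thus lay beside the reference, without a call.

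In the gamma-delta-associated list SYK, BLK, ETV5, GATA3, ID3, SOX5 and TCF12 were on the gamma-delta side. Of 13 measured members, 0 were higher and 10 lower in iNKT cells, 9 with TMM scaling, with a median log2 ratio of −2.84. The 10 include SOX13 and RHEX, which chose the cells, and neither count nor median was recomputed without them. ETV5, SYK and SOX5 reached the minimum CPM for measured genes only in gamma-delta-like cells. These genes could therefore be called lower in iNKT cells but not higher. The split of 0 and 10 is thus partly set by the choice of cells and genes. BLK, GATA3 and ID3 reached the minimum in iNKT cells and the reference as well. SYK, a kinase that can replace ZAP70 in early receptors, stood at 27.9 CPM in gamma-delta-like cells, 1.52 CPM in iNKT cells and 3.92 CPM in the reference. CD2, an adhesion receptor, was lower than the reference's 1399.8 CPM in both groups, at 317 CPM in iNKT cells and 256 CPM in gamma-delta-like cells.

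Receptors for costimulation had the highest median ratio of the functional lists. Of 10 measured members, 7 were higher in iNKT cells and 1, CD96, was lower, with a median log2 ratio of 3.11. Against the reference 5 were higher in iNKT cells, while 7 were lower and 0 higher in gamma-delta-like cells. TNFRSF18, the receptor GITR, stood at 568 CPM in iNKT cells, 23.0 CPM in gamma-delta-like cells and 51.0 CPM in the reference. CD40LG, the ligand of CD40, stood at 394, 32.8 and 79.5 CPM, and CD28 at 104, 8.20 and 53.8 CPM. PDCD1, the inhibitory receptor PD-1, stood at 100.4, 30.3 and 29.1 CPM. CD226, an activating adhesion receptor, had 3 UMIs in gamma-delta-like cells and a ratio of 24.2 (8.28 to 118).

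Cytokine receptors differed in both directions. Of 16 measured members, 8 were higher and 4 lower in iNKT cells. IL7R, the receptor for the survival cytokine interleukin 7, was detected in 85.9% of iNKT cells, 12.7% of gamma-delta-like cells and 39.4% of reference cells, with levels of 858, 53.3 and 331 CPM. IL6R stood at 123 CPM in iNKT cells, 21.3 CPM in gamma-delta-like cells and 11.8 CPM in the reference. IFNGR2, a chain of the interferon gamma receptor, had 4 UMIs in gamma-delta-like cells and was 18.6-fold higher in iNKT cells (7.27 to 68.4). On the gamma-delta side were IL9R, at 104 CPM against 0.512 CPM in iNKT cells, and IL1RL1, the interleukin 33 receptor, at 111 against 17.8 CPM.

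Receptors of the NK and SLAM families and cytotoxic genes were called in both directions. Of 9 NK and SLAM genes, 1 was higher and 4 lower in iNKT cells, and of 12 cytotoxic genes 1 was higher and 3 lower, the last turning to 2 and 1 with TMM scaling. Against the reference 2 cytotoxic genes were higher and 7 lower in iNKT cells, 4 and 6 with TMM scaling. In gamma-delta-like cells 2 cytotoxic genes were higher and 3 lower than the reference. Over all measured genes 5.55% were higher and 7.47% lower than the reference in iNKT cells, and 7.53% and 6.25% in gamma-delta-like cells. GZMH, granzyme H, stood at 9.63 CPM in iNKT cells and 51.7 CPM in gamma-delta-like cells, both below the 581 CPM of the reference. CTSW, a protease of cytotoxic cells, stood at 525, 1240.2 and 1649 CPM. SRGN and CST7 were the 2 cytotoxic genes above the reference in both groups.

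Genes that respond to receptor signals were higher in iNKT cells for most members called. Of 14 measured, 7 were higher and 2 lower, and 8 and 1 with TMM scaling. CD5, whose level follows receptor signal strength, stood at 737 CPM in iNKT cells, 105 CPM in gamma-delta-like cells and 309 CPM in the reference. EGR1, an immediate early factor of receptor signalling, stood at 321, 99.2 and 151 CPM. NR4A3 was lower in iNKT cells, at 1.48 against 19.7 CPM in gamma-delta-like cells and 20.2 CPM in the reference. All 24 of its UMIs in gamma-delta-like cells came from the 57 cells in which SOX13 was not detected. Of 24 genes of the proximal signalling chain, 4 were higher and 5 lower in iNKT cells, 6 and 4 with TMM scaling, and ZAP70, the kinase that docks on the receptor, stood at 211, 495 and 162 CPM, a call that was lost with TMM scaling.

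Other lists moved one way. Of 20 interferon-stimulated genes, 13 were higher and 0 lower in iNKT cells, and against the reference 10 were lower and 0 higher in gamma-delta-like cells. IFI6 stood at 1136 CPM in iNKT cells, 182 CPM in gamma-delta-like cells and 376 CPM in the reference, and ISG20, an exonuclease, had 0 UMIs in gamma-delta-like cells and was at least 22.9-fold higher in iNKT cells. Of 15 immediate early and heat shock genes, 5 were higher and 0 lower in iNKT cells, with FOS at 561, 56.6 and 124 CPM. For these genes the effect of bead handling was not tested.

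Cytokines and homing genes differed by member. Of 8 cytokines and chemokines, 4 were higher and 2 lower in iNKT cells. TNF stood at 82.5 CPM in iNKT cells, 5.74 CPM in gamma-delta-like cells and 13.4 CPM in the reference. CCL5, a chemokine of effector T cells, stood at 8.76, 45.1 and 130 CPM. Of 20 homing and egress genes, 6 were higher and 3 lower. CCR7, the receptor that leads mature thymocytes to the medulla, stood at 662, 115 and 419 CPM. CCR9, the receptor for the thymic and gut chemokine CCL25, stood at 51.2, 361 and 385 CPM, and CXCR4 at 75.7, 599.6 and 175 CPM. ITGA1, an integrin of tissue-resident cells, was 20.2-fold lower in iNKT than in gamma-delta-like cells (16.9 to 23.9).

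Few metabolic and survival genes were called, in both directions. Over all measured genes 7.95% were higher and 11.9% lower in iNKT cells. The counts below are too small beside these shares to be read as a result about a family. Of 14 glycolysis genes, 2 were higher and 1 lower in iNKT cells. SLC16A3 and SLC16A1, both monocarboxylate transporters, went opposite ways, with SLC16A3 at 80.9 CPM in iNKT cells against 6.56 CPM in gamma-delta-like cells and SLC16A1 at 9.61 against 77.9 CPM. Of 10 survival genes, 1 was higher and 2 lower, and BCL2L1, which encodes BCL-XL, stood at 9.57 against 32.0 CPM. Of 4 genes of MHC class II, 1 was higher and 2 lower in iNKT cells.

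**Figure D4:**
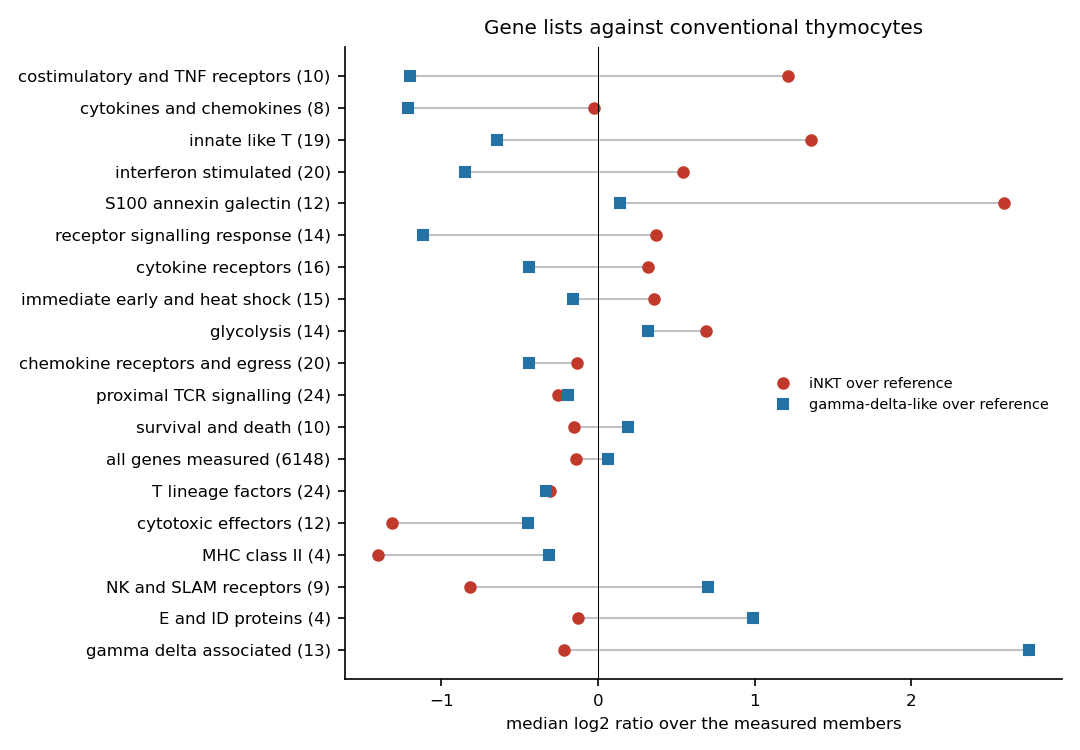
Median log2 ratio to the conventional reference over the measured members of each gene list (number in brackets), for iNKT cells (circles) and gamma-delta-like cells (squares), ordered by the median of the direct comparison. The costimulatory list lies at 1.21 in iNKT cells and −1.20 in gamma-delta-like cells, and the gamma-delta-associated list, which holds SOX13 and RHEX, at −0.22 and 2.75.

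Gamma-delta-like cells were then described by whether SOX13 was detected. The 218 cells with SOX13 and the 57 without, which all had RHEX, showed no call in BLK, ETV5, GATA3, ID3, IL9R, LPL, ELOVL3 or SLAMF7. The early receptor-response genes NR4A1 and NR4A3 and the effector genes CCL5, XCL1 and CD40LG were higher without SOX13. SOX13 and RHEX chose and split the cells, so these differences are descriptions. Of 5971 measured genes, 90 (1.51%) were higher and 126 (2.11%) lower with SOX13. Of the 319 gamma-delta-side genes 25 were higher and 2 lower with SOX13, and of 88 measured iNKT-side genes 0 were higher and 15 lower. Both classes were defined with these same gamma-delta-like cells, of which 218 had SOX13. The 88 are only part of the 225 iNKT-side genes. Nothing is therefore read from these class counts.

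BLK stood at 714 CPM with SOX13 and 501 CPM without, ID3 at 1358 and 1158 CPM, and LPL at 118 and 126 CPM. HES1 was higher with SOX13, at 281 against 95.8 CPM, as were ALOX5AP at 179.9 against 78.4 CPM and CLIC4, an intracellular chloride channel protein, at 76.8 against 17.4 CPM. S100A4 had 65 UMIs in cells with SOX13 and 2 in cells without, a ratio of 7.55 (2.01 to 63.6). NR4A3 had 0 UMIs in cells with SOX13 and 24 in cells without, which puts it at least 34.5-fold lower with SOX13. NR4A1 stood at 7.07 against 91.4 CPM, CD40LG at 14.1 against 113 CPM and CCL5 at 18.2 against 161 CPM. ID2, on the iNKT side in the main comparison, stood at 80.9 CPM with SOX13 and 257 CPM without.

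**Figure D5:**
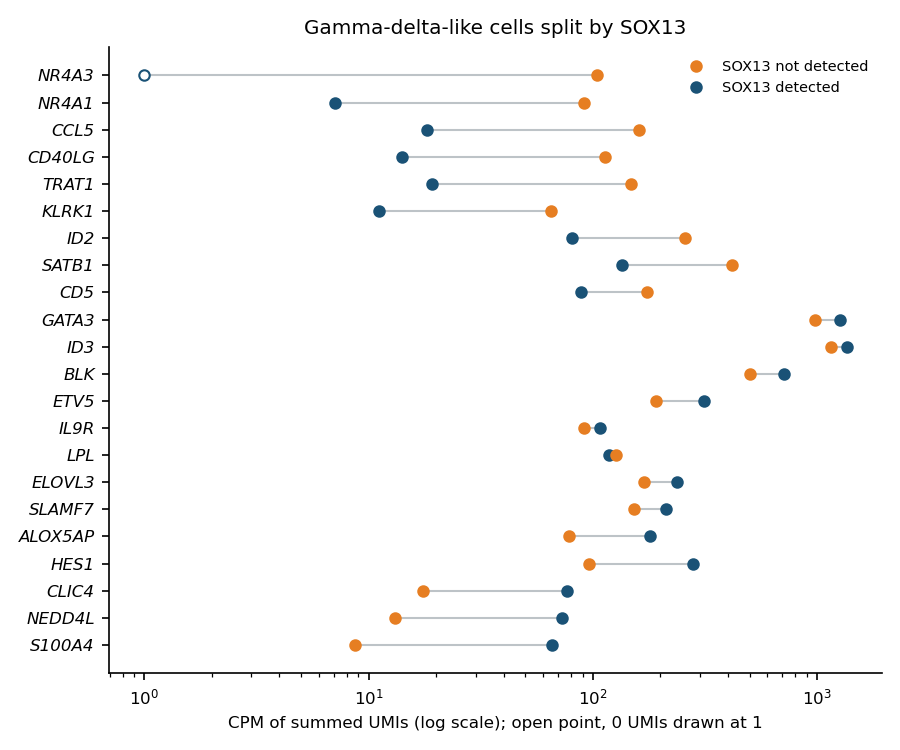
CPM of summed UMIs on a log axis for 22 genes in the 218 gamma-delta-like cells with SOX13 detected and the 57 without; the open point marks 0 UMIs, drawn at 1. NR4A3, NR4A1, CCL5 and CD40LG lie higher without SOX13, BLK, ID3 and LPL lie less than 2-fold apart, and HES1, CLIC4, NEDD4L and S100A4 lie higher with SOX13.

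The iNKT cells with RHEX were compared with the other iNKT cells in the same way. The 635 iNKT cells with at least 2 UMIs of SOX13 and RHEX met the gamma-delta rule within their own library, and 434 of them (68.3%, 64.6 to 72.0) held ZBTB16, against 52.7% of the 9350 iNKT cells with neither gene. Their median depth was higher, at 5292 against 4033 UMIs. Of 5129 measured genes, 3 (0.0585%) were higher and 3 lower, RHEX itself among the higher. Of 105 measured gamma-delta-side genes 1 was higher and 0 lower. That class was defined by low levels in these same iNKT cells, and the 105 are only part of its 319 genes. Nothing is therefore read from this class count. BLK stood at 25.7 CPM in these cells and 22.2 CPM in the others, and GATA3 at 157 and 169 CPM.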

How the data were processed

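Droplet 3′ single-cell RNA sequencing measured 2 libraries, per the labels' protocols, with Cell Ranger 3.1 and Seurat 3.1 listed as tools, per the submitters' processing notes. The deposited matrices hold whole-number UMI counts with no normalization (Cell Ranger 3.1.0 per the file headers), while build and annotation are not given in the sources used here. Of 21301 genes, 14846 had a deposited symbol and 687 one from a table of gene names, and 15513 symbols were usable once repeated ones were set aside.

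The UMIs of each cell group were summed (50771537 in iNKT cells, 1219182 in gamma-delta-like cells, 1786026 in the reference) and scaled to CPM. A CPM value has an exact Poisson interval, a ratio an exact conditional binomial interval and a share of cells a Clopper-Pearson interval. For calls, counts under 3 were set to 3. Log2 ratios add 0.5 to each count. Shares were also computed with each cell thinned to 2000 UMIs, which left out 303 iNKT, 2 gamma-delta-like and 108 reference cells. No replicate test was possible with 1 library a group.

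Genes are named by rule: the 12 called genes with the highest and the 12 with the lowest ratio by interval bound at 50 CPM or more, 12 shared genes, 10 of each side, and the extremes of each list. The members, lists and reference were chosen with earlier results of these data known, and the SOX13 and RHEX splits, HES1 to ANXA1 among the shared genes and single receptor and lineage genes were picked after their values were seen. Doublets were not removed; an alternative left out the highest 8% of Scrublet scores (scanpy 1.11.5). Another used TMM factors (edgeR 4.0.16).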

Additional observations from a re-analysis of the deposited data

Results flagged for a closer look

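Some cells carried a signal outside the groups compared. In the iNKT library 635 of the 10976 cells chosen (5.79%) met the gamma-delta-like rule, all with a RHEX UMI and 3 with a SOX13 UMI. In the same library 59 cells, or 0.534% of those past the filters, met the rule of the conventional reference, with CD4 or CD8B detected, and 26 of these 59 had a ZBTB16 UMI. In the total thymocyte library 9 of 8026 cells past the cell filters (0.112%) had a ZBTB16 UMI, 1 of them with SOX13 and 1 with RHEX. The 635 cells are part of the iNKT cells compared, and 2 of the 9 total thymocytes are part of the reference.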

How the results depend on the processing

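No paired analysis was possible because each kind of library was sequenced once and the labels give no replicate numbers. With a minimum of 50 CPM, iNKT cells had 274 genes higher and 399 lower than gamma-delta-like cells, with 41 shared, 129 iNKT-side, 181 gamma-delta-side and 41 shared lower genes. With no minimum beyond 10 UMIs the counts were 795 higher, 1342 lower, 382 on the iNKT side and 150 shared lower. At 3-fold they were 298 higher, 360 lower, 21 shared, 136 and 169 on the sides and 36 shared lower. At most 5% mitochondrial UMIs gave 104 shared genes. All other total thymocytes as reference gave 197 gamma-delta-side and 273 shared lower genes. Gamma-delta-like cells without SOX13, an alternative chosen after seeing the data like those with SOX13 and without shared barcodes, gave 47 shared lower genes. The other alternatives kept these 6 counts within 1.5 times, TMM scaling among them, under which 61 of the 67 shared, 225 of the 225 iNKT-side and 252 of the 319 gamma-delta-side genes kept their class. With gamma-delta-like cells without SOX13, 44 of the 67, 143 of the 225 and 185 of the 319 kept it. The iNKT-library cells that met the gamma-delta rule, put in place of the gamma-delta-like cells, left 7 genes higher and 7 lower in the other iNKT cells. There CCL5, ITGA1, KLRK1 and TENT5A turned to ratios of 9.34, 2.82, 3.42 and 4.01, given here without intervals. CCL5 had 445 UMIs (8.76 CPM) over all iNKT cells. The cause of the turned ratios was not tested. The 275 gamma-delta-like cells limit the depth most, with 1219182 UMIs in all.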
